A study of Homo sapiens with 17 samples.

Results

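HAL1 copies are remnants of old mammalian retrotransposons related to LINE-1 (L1), with an ORF1 reading frame and without the ORF2 reading frame of a complete L1. The copies described here are the repeat loci whose subfamily name begins with HAL1, chosen by name and by no measured value. They number 29497 of the 3594049 repeat loci in the deposited table. The HAL1 subfamily itself holds 17620 of them, HAL1ME 6315, HAL1b 3875 and HAL1M8 1687. Together they cover 9.90 Mb of the genome (build hg38).

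An active L1 encodes ORF1p, an RNA-binding protein that coats its own messenger RNA, and ORF2p, which cuts DNA and reverse transcribes RNA into the cut. Both proteins associate preferentially with the RNA that encoded them, but other cellular RNAs can be bound as well. HAL1 elements stopped moving long ago, and their copies are now mostly short, diverged stretches that can be transcribed as passengers within genes and other transcripts. A read over a HAL1 copy does not tell which transcript it came from, and the origin of the reads was not tested.

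The study measured the RNA bound by the L1 proteins in N2102Ep, an established human embryonal carcinoma line. RNA immunoprecipitation (RIP) was done against ORF1p in 4 libraries and against ORF2p in 4 libraries. A mock immunoprecipitation, described as mIgG, gave 3 libraries, and total RNA gave 6. The labels name clone 2/A6 as the source of the ORF2p, mock and total RNA libraries, and give only an embryonal source for the ORF1p libraries, so protein and source label cannot be told apart for ORF1p. The total RNA libraries carry no treatment label and 2 description prefixes, called here series b (replicates 1 and 2) and series bl (replicates 3 to 6). No transgene or drug is named for any group, and all groups come from 1 line. Nothing in the labels says that replicates were separate cultures, so the p-values speak only of how far these libraries scatter, some of which may be technical.

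To show what these copies look like, 3 are given below. They were picked by their reads from the 42 that overlap a RefSeq promoter window (250 bases before to 50 after a gene's start, GRCh38.p14). Each window is printed 5′ to 3′ on the gene's strand, and capitals mark the bases that belong to the HAL1 copy. The LINC01673 window is chr21:27638368-27638667 (plus strand), the LOC105370935 window chr15:83961308-83961607 (minus strand) and the LOC124903984 window chr17:33708292-33708591 (plus strand).
LINC01673: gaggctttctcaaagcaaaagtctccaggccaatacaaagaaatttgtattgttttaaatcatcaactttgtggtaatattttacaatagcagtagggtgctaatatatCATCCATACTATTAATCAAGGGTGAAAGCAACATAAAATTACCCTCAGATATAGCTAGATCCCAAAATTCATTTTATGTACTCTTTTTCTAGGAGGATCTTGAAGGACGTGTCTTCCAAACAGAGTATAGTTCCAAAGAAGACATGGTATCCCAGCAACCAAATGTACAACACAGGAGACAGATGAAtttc
LOC105370935: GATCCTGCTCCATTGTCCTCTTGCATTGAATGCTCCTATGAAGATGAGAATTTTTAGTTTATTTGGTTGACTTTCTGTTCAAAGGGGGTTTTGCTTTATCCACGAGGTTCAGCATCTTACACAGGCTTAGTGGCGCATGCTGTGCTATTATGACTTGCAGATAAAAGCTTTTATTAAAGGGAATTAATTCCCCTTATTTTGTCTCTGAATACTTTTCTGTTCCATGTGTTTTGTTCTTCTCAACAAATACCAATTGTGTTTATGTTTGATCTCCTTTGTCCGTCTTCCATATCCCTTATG
LOC124903984: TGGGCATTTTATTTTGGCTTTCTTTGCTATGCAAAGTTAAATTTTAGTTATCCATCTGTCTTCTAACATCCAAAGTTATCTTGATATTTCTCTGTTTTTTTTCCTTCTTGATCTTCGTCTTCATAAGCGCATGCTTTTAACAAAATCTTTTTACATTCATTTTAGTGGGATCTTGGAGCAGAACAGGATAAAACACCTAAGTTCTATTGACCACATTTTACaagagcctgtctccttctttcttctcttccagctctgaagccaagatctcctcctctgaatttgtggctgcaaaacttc

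The copy in the LINC01673 window is of the HAL1 subfamily, runs along the gene and fills 187 bases. That in the LOC105370935 window is HAL1b, runs against the gene and fills all 300 bases. That in the LOC124903984 window is HAL1, also runs against the gene and fills 221 bases. These 3 had the most reads once chromosome 8 was left out. With it left out again, 34 overlapping stretches had at least 50 bases. Read on the copy's own strand, they were 37.9% A and 24.2% T, and 30 of the 34 held more A than T. An excess of A on the coding strand is a known trait of L1 sequences. Counts over these 3 copies were low. Levels are given as CPM, counts per 1000000 repeat reads of the library, after the library size was scaled by edgeR's TMM factor. The LINC01673 copy had 0 reads in the 4 ORF1p libraries, and its mean levels were 0.654 CPM with ORF2p, 1.61 in mock and 1.13 in total RNA. The LOC124903984 copy also had 0 reads with ORF1p, against 0.368 CPM with ORF2p, 0.642 in mock and 0.976 in total RNA. The LOC105370935 copy, which also lies within the span of ADAMTSL3, had the opposite order. Its 4 ORF1p libraries were at 2.56, 3.85, 6.44 and 4.07 CPM, all above the other 13 libraries, whose group means were 0.108 with ORF2p, 0.127 in mock and 0.267 in total RNA. Of the 3, this copy alone had enough reads for the locus test, where ORF1p over mock was 4.93 on the log2 scale (SE 0.87, adjusted p 3.72e-05, edgeR quasi-likelihood test).

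HAL1 copies were short and old. Their median length was 235 bp, from 26 to 2996 bp, and their median divergence from the subfamily consensus was 27.4%, against 19.8% for all repeat loci, 23.1% for L1M copies and 26% for L1ME copies (older L1 groups). HAL1M8 was the least diverged at a median of 22.8% and HAL1ME the most at 28.5%. A share of 66.1% lay within the span of a RefSeq gene, against 63.7% of all repeat loci. Where 1 gene span of known strand held the copy (13899 copies), 33.7% ran along the gene, against 43.3% over the whole table and 35.1% for L1M copies. No exon annotation was used here, so whether a copy within a span is exonic or intronic is not stated. Copies with no read in any library numbered 4979 (16.9%), and 13882 (47.1%) had at least 10 reads in all. Of the latter, 81.2% lay within a gene span.

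Depth, as reads counted over all repeat loci, was 7693841 to 9125527 in the ORF1p libraries, 9795032 to 17056092 with ORF2p, 12703395 to 16271143 in mock and 8937441 to 19670774 in total RNA. HAL1 copies took 66433 to 222704 reads per library. ORF1p replicate 3 stood apart from its group in its counts over all repeat subfamilies. Its chi-square per degree of freedom was 449 to 500.7 against the other ORF1p libraries, which differed from each other by 12.8 to 24.9. Replicate 3 also had reads on 6075 HAL1 loci, against 9194 to 9540 in the other 3. Series b and bl of total RNA differed by 1347 to 2784, and libraries within a series by 19.0 to 148. L1HS, the active human subfamily and the proteins' own template, checked the labels: its mean was 25540 CPM with ORF1p (15472 to 53009), 16682 with ORF2p, 1793 in mock and 1710 in total RNA. HAL1 copies held 0.876% ± 0.0149 of repeat reads with ORF1p (SD, n = 4), 0.876% ± 0.0395 with ORF2p (n = 4), 0.812% ± 0.0327 in mock (n = 3) and 1.08% ± 0.162 in total RNA (n = 6).

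Per megabase of annotated copy, the 4 subfamilies were close to each other in most groups. In mock they stood at 780 CPM per Mb (HAL1), 689 (HAL1b), 769 (HAL1M8) and 906 (HAL1ME), and with ORF1p at 872, 1085, 874 and 989 in the same order. The ORF2p libraries broke this pattern for HAL1ME, at 1965 CPM per Mb against 827 to 976 for the other subfamilies. The following comparisons ask which subfamilies were recovered with either protein beyond the mock. Of the 1074 subfamilies tested, edgeR called 26% higher and 25.6% lower with ORF1p than in mock at an adjusted p under 0.05, and 16.7% higher and 15.5% lower with ORF2p. Among the 4 HAL1 subfamilies, HAL1b was called higher with ORF1p and HAL1ME higher with ORF2p, and none was called lower. At 1 of 4, the count called higher is near that background in both comparisons.

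HAL1ME reached 2834, 3368, 3269 and 2931 CPM in the ORF2p libraries, against 1421, 1449 and 1418 in mock and 1485, 1532, 1843 and 1382 with ORF1p. Every ORF2p library was thus above every ORF1p and mock library, and also above the total RNA libraries, at 1238 and 1282 in series b and 2106 to 2305 in series bl. The log2 difference was 1.12 over mock (SE 0.20, adjusted p 0.000579, 95% interval 0.68 to 1.55) and 0.99 over ORF1p (SE 0.18, adjusted p 0.000231) by edgeR. HAL1ME was 1 of the subfamilies called higher with ORF2p than with ORF1p (28.1% of those tested, with 28.3% lower), and the 3 other HAL1 subfamilies were not called. Over total RNA it was 0.72 (SE 0.16, adjusted p 0.00286), where 18% of subfamilies were called higher and 20.6% lower.

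**Figure D1:**
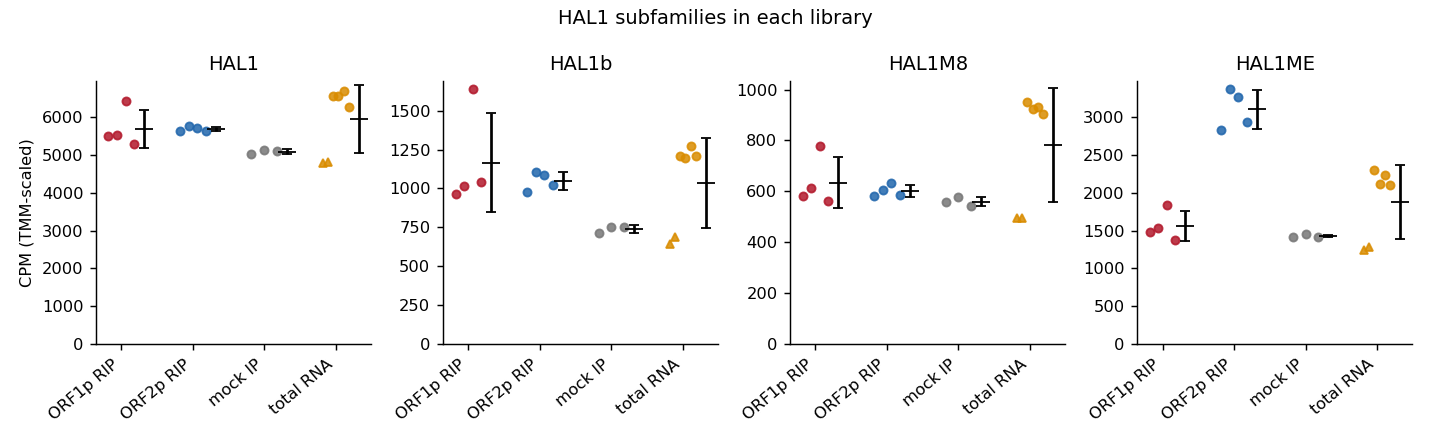
Level of each HAL1 subfamily (CPM) in every library, by sample group, with black bars for the mean ± SD and triangles for total RNA series b. HAL1ME stands at 2834 to 3368 in the ORF2p libraries and at 1382 to 1843 with ORF1p.

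Most of this difference lay in 1 copy. The HAL1ME copy at chr1:62210513-62211374 (plus strand, 862 bp, 27.8% diverged) lies within L1TD1, on its strand. L1TD1 is a gene of pluripotent cells that was domesticated from an L1 and encodes an RNA-binding protein related to ORF1p. The copy stood at 1229, 1655, 1533 and 1257 CPM in the ORF2p libraries, at 112, 123 and 102 in mock, and at 12.6, 9.31, 29.7 and 16.1 with ORF1p. Total RNA gave 84.6 and 75.1 in series b and 364 to 552 in series bl. No library of the ORF2p, mock and ORF1p groups overlapped another group. The copy was higher with ORF2p than in mock by 3.66 on the log2 scale (SE 0.60, adjusted p 7.36e-05) and lower with ORF1p than in mock, at -2.74 (SE 0.53, adjusted p 0.000119). It held 45.6% ± 2.98 of all HAL1ME reads with ORF2p (SD, n = 4), against 7.87% in mock and 15.03% in total RNA. Without it, HAL1ME was 0.35 over mock (adjusted p 0.0818), 0.12 over ORF1p (adjusted p 0.459) and 0.10 over total RNA (adjusted p 0.559), and none of these passed the test.

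The span of L1TD1 (chr1:62194849-62212328) holds 44 repeat loci with at least 30 reads, 30 of them Alu copies. Besides the HAL1ME copy, 2 L1MEd copies were high with ORF2p. The one at 62206564-62206907 had a mean of 1705 CPM with ORF2p, 127 in mock, 373 in total RNA and 22.0 with ORF1p. The one at 62207100-62207716 had 1174, 64.0, 232 and 15 CPM in the same groups. The highest other repeat of the span, an AluY, was at 26.4 CPM with ORF2p, 4.31 in mock and 0.864 with ORF1p. In the same groups, an AluJb at 62212136-62212250 was at 10.4, 2.77 and 0.345 CPM, and an AluSx at 62203430-62203583 at 4.55, 0.981 and 0.138. These Alu copies were also highest with ORF2p and lowest with ORF1p. The other Alu copies of the span had lower means with ORF2p than in mock. The HAL1ME copy and the 2 L1MEd copies had the same order of groups, which other L1-derived copies of the span did not share. An L1MA3 copy was at 6.54 CPM with ORF2p and 11.4 in mock, and the L1ME3C, L1ME3G and L1MC copies were also lower with ORF2p. Copies of L1MC5a (3.04 and 2.70), L1M5 (7.27 and 7.07) and L1MEj (0.698 and 0.632) were slightly higher with ORF2p than in mock. Those copies were highest in total RNA, at 4.73, 8.20 and 0.822 CPM. The table does not assign reads to the gene itself, and the share of them that came from spliced L1TD1 messenger RNA was not tested.

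**Figure D2:**
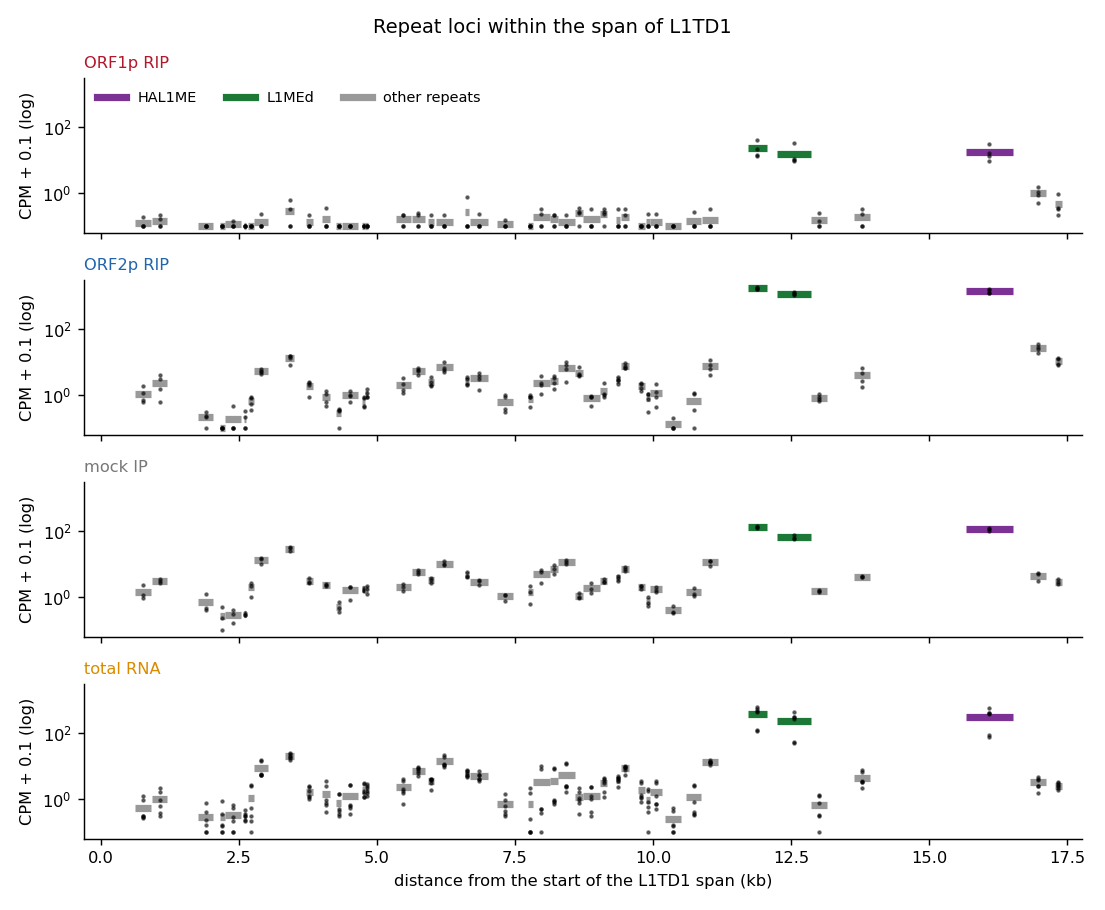
Mean CPM (plus 0.1, log axis) of the repeat loci within the L1TD1 span in each sample group, by their distance from its start in kb, with each bar spanning a locus at its mean and points for single libraries. The HAL1ME copy and 2 L1MEd copies stand far above the other repeats with ORF2p, and the ORF1p values for these 3 lie below those of mock and total RNA.

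HAL1b stood at 964, 1015, 1640 and 1043 CPM with ORF1p and at 714, 754 and 752 in mock, so that every ORF1p library was above every mock library. The log2 difference was 0.66 (SE 0.24, adjusted p 0.0277, 95% interval 0.15 to 1.16, edgeR). The highest value was that of ORF1p replicate 3, the library that stood apart, and without it the difference was 0.45 (adjusted p 0.108). The call was also lost without mock replicate 1 (0.63, adjusted p 0.0804), 2 (0.67, adjusted p 0.0625) or 3 (0.67, adjusted p 0.0654). With ORF2p, HAL1b stood at 980, 1105, 1089 and 1021 CPM, again above every mock library, at 0.50 (SE 0.23, adjusted p 0.107), which did not pass the test. The ORF2p over ORF1p difference was -0.15, with a 95% interval of -0.62 to 0.31. The table holds fractional counts for many loci. Over HAL1b loci with whole counts in every library, ORF1p over mock was 0.29 and not called.

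The copies behind the HAL1b level differed between the proteins. The copies in this paragraph were chosen after their values were seen. With ORF1p the leading copy was chr17:35410246-35410491, outside any gene span, with 6.68% of HAL1b reads. It stood at 45.1, 46.0, 158 and 82.0 CPM with ORF1p, at a mean of 3.86 with ORF2p and at 2.09 in mock, and ORF1p over mock was 5.29 on the log2 scale (adjusted p 4.72e-06, edgeR). The adjoining copies at 35410477-35410653 and 35410683-35410784 had log2 differences of 5.27 and 5.44. These 3 touch or neighbour each other and may report 1 transcript. With ORF2p the leading copy, with 6.34% of HAL1b reads, began at 9255911 on chromosome 18 within ANKRD12, which encodes an ankyrin repeat protein. It had a mean of 66.5 CPM with ORF2p and 1.22 in mock, and 8.06, 7.82, 47.7 and 5.36 with ORF1p. In mock the leading copy began at 28032153 on chromosome 21, at 19.0 CPM, with 23.0 CPM with ORF2p and 0.07 with ORF1p.

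The HAL1 and HAL1M8 subfamilies did not pass the test in either RIP. HAL1 stood at 5505, 5522, 6433 and 5284 CPM with ORF1p, at 5631, 5767, 5702 and 5647 with ORF2p, and at 5022, 5139 and 5099 in mock. The log2 difference over mock was 0.16 with ORF1p (adjusted p 0.296) and 0.16 with ORF2p (adjusted p 0.344). Every RIP library was above every mock library, but when libraries were scaled by their totals the ORF2p value turned to -0.15. HAL1M8 stood at 583, 615, 780 and 562 CPM with ORF1p, with means of 601 ± 24.0 with ORF2p (SD, n = 4) and 559 ± 17.8 in mock (SD, n = 3). Its log2 difference over mock was 0.18 with ORF1p (adjusted p 0.493) and 0.11 with ORF2p (adjusted p 0.744), the latter -0.20 when scaled by totals. Scaling by totals moved the median of all subfamilies by -0.34 for ORF2p over mock. A single HAL1M8 copy, named after its values were seen, had a large difference within this near-level sum. The copy at chr13:51185570-51187568, outside gene spans, had means of 62.0 CPM with ORF1p, 63.6 with ORF2p, 7.45 in mock and 26.1 in total RNA, and log2 differences over mock of 3.06 (adjusted p 0.00035) and 3.09 (adjusted p 0.000947).

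Other old repeats give a scale for these values. The median log2 difference over the 4 HAL1 subfamilies was 0.17 for ORF1p over mock and 0.33 for ORF2p over mock. Over 88 L1M subfamilies it was 0.20 and 0.50, with 18 called higher and 6 lower with ORF1p, and 42 higher and 0 lower with ORF2p. Over 27 L1ME subfamilies it was 0.34 and 0.40, with 6 higher and 1 lower, and 10 higher and 0 lower. The median over all subfamilies was 0.02 and -0.03. The HAL1 medians thus lay between those of all subfamilies and of the L1M and L1ME groups.

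Against total RNA the values turned on the series of total RNA libraries. All 4 subfamilies were higher in series bl than in series b, by 0.44 (HAL1, adjusted p 3.58e-05), 0.88 (HAL1b, adjusted p 7.16e-05), 0.91 (HAL1M8, adjusted p 5.06e-07) and 0.80 (HAL1ME, adjusted p 2.01e-06) on the log2 scale by edgeR. Most repeat subfamilies differed between the series: of 1075 tested, 416 were called higher in bl and 377 lower. HAL1 stood at 4776 and 4820 CPM in series b and at 6277 to 6703 in bl, HAL1b at 641 and 688 and at 1199 to 1272, and HAL1M8 at 496 and 494 and at 902 to 953. With both series together, no subfamily was called for ORF1p over total RNA (log2 differences of -0.30 to 0.17), where 29.1% of all subfamilies were called higher and 28.6% lower. For mock over total RNA none was called either (-0.49 to -0.23), against 2.23% higher and 0.652% lower. At an unadjusted p under 0.05 by edgeR, 3 of the 4 were lower in mock. In either direction, 310 of all 1074 subfamilies reached that level, as did 46 of 88 L1M and 20 of 27 L1ME subfamilies. Against series b alone, ORF1p was higher in 4 of 4 (HAL1 0.18, HAL1b 0.73, HAL1M8 0.29, HAL1ME 0.24), and against series bl alone it was lower in 3 of 4 (-0.23, -0.58 for HAL1M8 and -0.52 for HAL1ME, with HAL1b -0.11 not called). Mock was not called against series b and was lower in 4 of 4 against series bl (-0.34, -0.71, -0.72 and -0.60). The shares over all subfamilies against each series alone are not given, so these counts are not read as particular to HAL1. The ORF2p difference for HAL1ME kept its direction, at 1.26 against series b and 0.50 against series bl.

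The locus test covered the 746 HAL1 copies with enough reads: 454 of HAL1, 135 of HAL1ME, 95 of HAL1b and 62 of HAL1M8. A copy could pass this filter through the group in which it is high, so the counts describe tested copies and not all members. With ORF1p, 225 were higher and 254 lower than in mock (30.2% and 34.0%), against 36.9% and 37.1% of the 68420 loci tested. A fit of these 2 groups alone gave 136 higher and 75 lower. That fit filtered loci anew and tested another set, with 45 copies outside gene spans against 161 in the main fit. The share over all loci in that fit is not given, so the shift is not read as particular to HAL1. With ORF2p, 154 were higher and 117 lower (20.6% and 15.7%), against 23.1% and 15.4%. Scaling by library totals, which shifts every locus of a library alike, turned that split to 128 higher and 173 lower. The share over all loci under that scaling is not given either, so this split is not read as particular to HAL1. For ORF2p over ORF1p, 294 were higher and 219 lower (39.4% and 29.4%), against 41.8% and 32.4%. The shares of HAL1 copies called were near these backgrounds, and their median log2 differences of 0.05, -0.13 and 0.13 stood beside 0.13, -0.05 and 0.33 over all loci. HAL1b had the largest share higher with ORF1p, 39 of 95 with 27 lower, and HAL1M8 the smallest, 15 of 62 with 26 lower. Of the 746 copies, 320 lay within 2 kb of another on the same strand, so neighbours can share a transcript.

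Within gene spans and outside them the copies had different distributions with ORF1p. Of the 161 tested copies outside spans, 14 were higher and 111 lower with ORF1p than in mock, with a median of -4.07 on the log2 scale, or -3.71 with the 36 copies at 0 in a group set to their bound. Of the 585 within spans, 211 were higher and 143 lower (36.1% and 24.4%), with a median of 0.43, against 41.7% and 28.6% of the 49498 tested loci within spans. All 18922 tested loci outside spans leaned the same way, with 24.4% higher, 59.2% lower and a median of -2.93. With ORF2p, 36 of the 161 outside copies were higher and 12 lower than in mock (22.4% and 7.45%), against 28.8% and 14.2% of all outside loci, and both medians were 0.15. For ORF2p over ORF1p, 127 of 161 were higher and 10 lower (median 4.89, or 4.49 at the bounds), against 66.7% and 13.7% of all outside loci. By subfamily, the outside copies with ORF1p were 4 higher and 64 lower of 87 for HAL1, 3 and 27 of 37 for HAL1ME, 6 and 15 of 26 for HAL1b, and 1 and 5 of 11 for HAL1M8. Without ORF1p replicate 3, 13 were higher and 115 lower of 169, with a median of -4.25. Over 23 alternative settings the share lower ran from 61.3% to 74.3% and the median from -6.23 to -3.02.

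**Figure D3:**
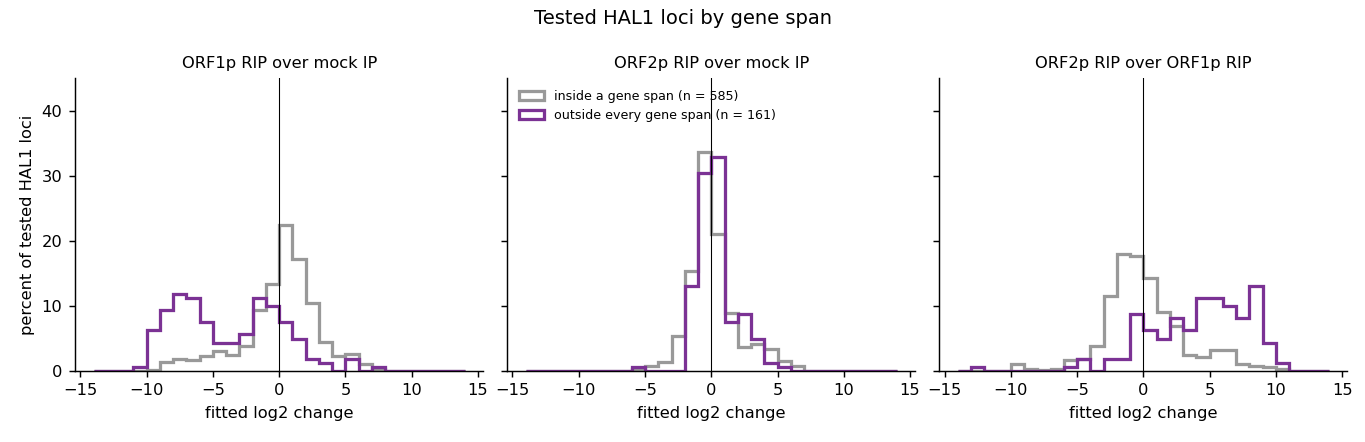
Percent of tested HAL1 copies (vertical axis) by their fitted log2 difference (horizontal axis), for the 585 copies within gene spans in grey and the 161 outside them in purple, in the 3 locus comparisons. Outside spans the ORF1p over mock values have a median of -4.07 and the ORF2p over mock values a median of 0.15.

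Summed over reads, the same contrast appeared in each library. The share of HAL1 reads that fell outside gene spans was 10.2%, 10.6%, 13.87% and 11.3% with ORF1p, with the highest in replicate 3. It was 19.99% ± 0.264 with ORF2p (SD, n = 4), 21.2% ± 0.698 in mock (n = 3) and 23.2% ± 2.29 in total RNA (n = 6). Over loci with at least 30 reads, the share was 10.6% for HAL1 copies and 16.4% for all repeat loci with ORF1p, 19.4% and 31.5% with ORF2p, 20.9% and 30.8% in mock, and 22.9% and 29.0% in total RNA. When subfamily sums were made from outside copies alone, ORF1p over mock was -1.09 for HAL1 (adjusted p 1.59e-04) and -1.32 for HAL1ME (adjusted p 5.85e-05) on the log2 scale, by edgeR. HAL1b at 0.80 (adjusted p 0.0749) and HAL1M8 at 0.58 (adjusted p 0.153) had the opposite sign and were not called. HERVH is an endogenous retrovirus whose transcripts are abundant in pluripotent cells. HERVH-int was lowest with ORF1p, as was the share outside spans, but the order of the other groups differed. It stood at a mean of 42658 CPM with ORF1p, 69937 with ORF2p, 181986 in mock and 83868 in total RNA. A HERVH-int copy with at least 1000 reads lay within 50 kb of 26.7% of the outside HAL1 copies, against 23.1% of all tested outside loci. It did so for 34.2% of the 111 copies lower with ORF1p and 10% of the other 50. Within spans it did so for 4.44% of the copies, against 5.74% of all tested loci. The split by ORF1p call was not made over all outside loci, so it has no background here. The part of HERVH transcripts in this result was not tested.

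**Figure D4:**
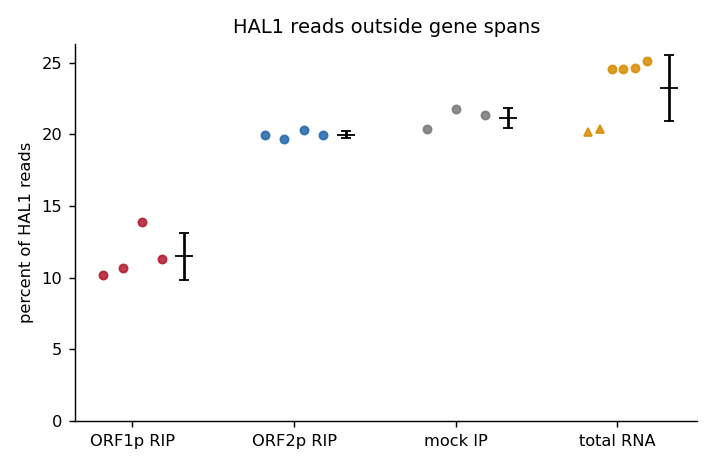
Percent of HAL1 reads outside RefSeq gene spans in each library, by sample group, with black bars for the mean ± SD. The 4 ORF1p libraries lie at 10.2% to 13.87%, below all libraries of the other groups.

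Besides the L1TD1 copy, 3 leading copies by reads are described, and they differed between the proteins. The HAL1 copy at chr7:22677798-22679153, 12265 bp from the nearest gene (LOC401312), stood at 0.427, 1.24, 1.61 and 0.456 CPM with ORF1p, at 25.2, 30.4, 29.3 and 26.5 with ORF2p, and at 75.5, 87.9 and 77.2 in mock, with 69.9 to 170 in total RNA. The 3 groups did not overlap, and both RIPs were lower than mock, at -6.46 (SE 0.46, adjusted p 4.15e-10) with ORF1p and -1.52 (SE 0.37, adjusted p 0.00242) with ORF2p. A HERVH-int copy lies 24.7 kb away. The copy at chr10:94604652-94605085 lies within HELLS, a chromatin remodelling helicase, against its strand. It stood at 29.0, 29.0, 44.6 and 22.0 CPM with ORF1p, at 79.7, 88.6, 80.8 and 83.4 with ORF2p, and at 59.7, 69.4 and 74.0 in mock. It was lower with ORF1p (-1.12, adjusted p 0.0102), and with ORF2p the difference of 0.30 was not called (adjusted p 0.564). The HAL1ME copy at chr11:33141731-33141987 lies within CSTF3, a cleavage stimulation factor of messenger RNA end processing, on its strand, and is only 8.2% diverged. It stood at 111, 97.4, 69.2 and 53.6 CPM with ORF1p, at 37.9, 25.4, 27.3 and 26.7 with ORF2p, and at 50.01, 36.6 and 45.01 in mock. ORF1p over mock was 0.91 (adjusted p 0.0224), and ORF2p over ORF1p was -1.50 (adjusted p 0.000291).

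**Figure D5:**
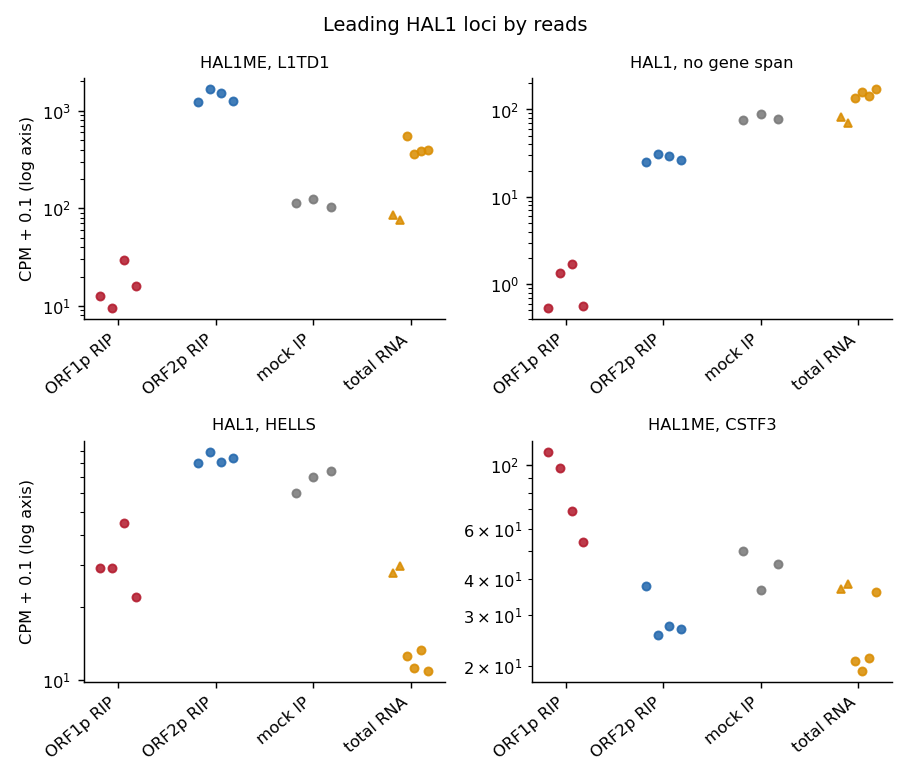
CPM (plus 0.1, log axis) of 4 HAL1 copies among those with the most reads, in every library, by sample group, with triangles for total RNA series b. The L1TD1 copy is highest in ORF2p, and the chromosome 7 copy is lowest in ORF1p at 0.427 to 1.61.

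The next copies had the largest called changes among those with at least 4 CPM in 1 of the 2 groups compared and no overlap of libraries. The 5 with the largest rise with ORF1p were close to 0 in mock. The HAL1b copy at chrX:103331385-103331634 within TCEAL7, of a family of transcription elongation factor-like proteins, stood at 30.7, 30.7, 27.5 and 27.3 CPM with ORF1p, at 0 to 0.213 with ORF2p and at 0.0611 to 0.225 in mock. ORF1p over mock was 7.48 on the log2 scale (SE 0.60, adjusted p 1.8e-09), and ORF2p over ORF1p was -8.10 (adjusted p 3.61e-10). The HAL1 copy at chr22:34628751-34628952, outside gene spans, stood at 62.0, 64.9, 70.4 and 44.2 CPM with ORF1p and at 0.885, 0.0607 and 0.15 in mock, and had 0 reads in the 4 ORF2p libraries. ORF1p over mock was 7.34 (adjusted p 1.63e-07). Against a floor of 3 reads over the group, it was at least 839-fold lower with ORF2p than with ORF1p. The remaining 3 were a HAL1ME copy within LOC101928466 (13.2 CPM with ORF1p, 4.43 with ORF2p), a HAL1 copy within LINC01719 (5.41 and 0.322) and a HAL1b copy within SLFN5 (6.91 and 3.53). Each had no more than 3 reads over the mock group. Their ratios of ORF1p to mock were 209 (95% counting interval 66.8 to 957), 92.8 (27.6 to 402) and 102 (34.5 to 499).

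The 5 copies with the largest drop with ORF1p all lay outside gene spans. The HAL1 copy on chromosome 21 that starts at 27936499 had 0 reads in the 4 ORF1p libraries, against means of 13.4 CPM in mock, 10.3 with ORF2p and 31.1 in total RNA, and was at least 145-fold lower with ORF1p than in mock. The copy on chromosome 12 that starts at 12037725 had 1 read over the 4 ORF1p libraries, against means of 38.5 CPM in mock, 15.95 with ORF2p and 65.6 in total RNA. Its ratio of mock to ORF1p was 1251 (95% counting interval 224 to 49448). The other 3, which start at 22674034 on chromosome 7, 76689747 on chromosome 2 and 62811027 on chromosome 6, were at 0 with ORF1p. They were at least 95.5-fold, 79.5-fold and 75.9-fold lower than in mock. The 5 copies were present with ORF2p, at means of 3.39 to 15.95 CPM.

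With ORF2p over mock, the largest rises lay within gene spans. The HAL1 copy within PHTF1 that starts at 113748275 on chromosome 1 stood at 21.2, 8.74, 15.2 and 19.2 CPM with ORF2p and at 0.0781, 0.122 and 0.301 in mock, with a mean of 2.88 with ORF1p, and ORF2p over mock was 6.62 (SE 0.70, adjusted p 7.77e-07). A HAL1ME copy within LOC124900602 had means of 12.7 CPM with ORF2p, 0.122 in mock and 0.255 with ORF1p. A HAL1ME copy within TCAF1 and the overlapping LOC112267988, where TCAF1 regulates a cold-sensing ion channel, had 74.0 CPM with ORF2p, 14.3 with ORF1p and 1.18 in mock. A HAL1 copy within LOC112267868 that starts at 30391606 on chromosome 14 had 14.8 CPM with ORF2p, 0.206 in mock and 0 with ORF1p, at least 160-fold below ORF2p. A HAL1b copy within SLFN5 that starts at 35269917 on chromosome 17 had 6.08 CPM with ORF2p, 5.59 with ORF1p and 0.081 in mock. The falls with ORF2p at this level were smaller. They were led by copies within PKN2 (a protein kinase; -3.27 and -3.21 for 2 neighbouring copies), NETO2 (a receptor-associated membrane protein; -2.92), XKR6 (-2.61) and AATF (a regulator of transcription and cell survival; -2.48). The copies within PKN2, NETO2 and AATF run against their genes. Copies under 4 CPM in both groups had larger fitted falls, but several of them were at 0 with ORF2p, where the bound is small. The chromosome 22 copy, for example, was at least 5.08-fold lower with ORF2p than in mock.

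For ORF2p over ORF1p, the copies with the largest rise were at 0 with ORF1p. Those not yet described were another copy within LOC112267868 (starts at 30392953), at least 114-fold higher with ORF2p, and a HAL1ME copy on chromosome 21 that starts at 27609082, at least 96.5-fold higher. Copies with the largest drop were at 0 with ORF2p. Besides the chromosome 22 copy they were within MIR99AHG (at least 102-fold lower), HDAC2-AS2 and HS3ST5, whose spans overlap (at least 100.4-fold lower), LOC124900404 (at least 91.1-fold lower) and TLR8-AS1 and TLR8 (at least 81.6-fold lower).

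In several genes that hold 4 or more tested copies, the copies had 1 direction. These genes were chosen after their values were seen, and copies within a gene can share a transcript, so they do not count as separate evidence. Of the 524 tested copies in exactly 1 span, 49 lay in 10 genes with 4 or more each. The 4 copies within PHTF1 were higher with ORF1p and with ORF2p than in mock, as were the 4 within SLFN5, a member of the Schlafen family. The 5 copies within each of ALG13 (an N-glycosylation enzyme), MACC1-OT1 and PTCHD1-AS were lower with ORF1p, as were the 4 within MACF1 (a cytoskeletal crosslinker), of which 3 were also lower with ORF2p. In KCNT2, a potassium channel gene, 2 of 6 copies were higher with ORF1p and none was called with ORF2p. In HELLS, 2 of 6 were lower with ORF1p and 3 were higher with ORF2p. In C12orf42, 4 of 5 were lower with ORF1p and 1 was higher with ORF2p, and in RANBP17 1 of 5 was higher with ORF2p and none was called with ORF1p.

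The level per megabase was highest in the shortest copies in each group. Copies of up to 200 bp stood at 1314 CPM per Mb with ORF1p, 1289 with ORF2p, 1158 in mock and 1225 in total RNA, and those over 1000 bp at 633, 548, 566 and 895. By divergence, the least diverged copies were highest in each group except with ORF2p. Copies up to 20% diverged stood at 1755 with ORF1p, 1026 with ORF2p, 1249 in mock and 1453 in total RNA, and those over 30% diverged at 789, 936, 765 and 964. With ORF2p the highest value was 1090 CPM per Mb, in copies over 25% and up to 30% diverged, the range that holds the L1TD1 copy. These are group means over summed reads and carry no test.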

How the data were processed

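Libraries were made with a kit for total RNA (Trio RNA-seq, Tecan) after rRNA depletion, per the labels' protocols. The submitters' processing notes name the aligner STAR and the genome build hg38. The counting tool, its strand setting and versions are not given in the sources used here. The authors deposited 1 table of expected counts (not always whole) for each repeat locus. Of its value columns, 17 match samples and were used, and 43 match no sample and were not used. Starts were shifted by 1 to count from 1. Counts were rounded and tested with edgeR 4.0.16 (quasi-likelihood, TMM, Benjamini-Hochberg adjustment, R 4.3.3) over all groups in 1 fit, with 13 residual degrees of freedom. Sums per subfamily used a minimum count of 10 (1074 tested). Loci used a minimum count of 50 with the library sizes of the whole table (68420 tested). A call is an adjusted p under 0.05. CPM is per 1000000 reads in the table, and SE is taken from the log2 value and its F statistic. Gene spans are those of RefSeq, GRCh38.p14 (59679 genes, 27305 with a strand). Without strand-aware counts, reads from a gene and its antisense partner cannot be told apart. Named copies were the 6 with the most reads and the 5 with the largest change on each side of each comparison, among called copies with non-overlapping libraries and at least 4 CPM in 1 of the 2 groups compared, and any other is said to be chosen later. Some copies that this rule names are not reported here. The members and lists were chosen with earlier results of these data known. On simulated counts for ORF1p over mock, 93% of subfamilies changed 2-fold and 100% of those changed 4-fold were recovered (1072 subfamilies), and 31.8% and 98.8% of loci (42412 loci). The simulation gave every feature the same dispersion of 0.05, so recovery in the real libraries can differ. Floors (3 reads over a group) and intervals (95%) cover counting error only. Alternatives were another normalization, DESeq2 1.42.0, other filters, each pair of groups alone, a replicate block, each total RNA series alone, subsets of loci and leaving out each library. The labels do not say whether replicate numbers pair the libraries, and the main fit did not pair them.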

Additional observations from a re-analysis of the deposited data

Results flagged for a closer look

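Of 93 sets of 4 or 6 libraries compared for the subfamilies and named copies, 6 held 1 library far from the rest, where chance gives about 1 in 20. HAL1b stood at 1640 CPM in ORF1p replicate 3, against 964 to 1043 in the other ORF1p libraries. The SLFN5 copy at 35269917 stood at 10.6 CPM in ORF1p replicate 3, against 3.31 to 4.28. The chromosome 12 copy at 12037725 had its only ORF1p read in replicate 1 (0.107 CPM). The other ORF1p libraries were at 0, so a single read was enough for the flag and the rate of 1 in 20 does not apply. The CSTF3 copy stood at 37.9 CPM in ORF2p replicate 1, against 25.4 to 27.3. The LOC124900602 copy stood at 20.7 CPM in ORF2p replicate 3, against 9 to 10.9. The LOC124900404 copy stood at 0.189 CPM in total RNA replicate 5, against 0 to 0.0558. Of these 6, 2 lay in ORF1p replicate 3, the library that stood apart from its group.

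The second kind of result was a difference between the series of total RNA libraries, which the labels do not explain. Series bl was above series b by 0.44 for HAL1, 0.88 for HAL1b, 0.91 for HAL1M8 and 0.80 for HAL1ME on the log2 scale, each past the edgeR test. The difference was not particular to HAL1, since 416 of 1075 subfamilies were called higher in series bl and 377 lower. What the series stand for was not tested.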

How the results depend on the processing

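Values are log2 differences in the order HAL1, HAL1b, HAL1M8 and HAL1ME unless a subfamily is named. Of the subfamily differences recomputed, 566 kept direction and call, 51 changed sign, 40 gained a call and 15 lost one. For the named copies 2018 were kept, 5 changed sign, 13 gained a call and 70 lost one. Where no cause is given, the cause was not tested. With library totals in place of TMM, HAL1 and HAL1M8 were -0.15 and -0.20 for ORF2p over mock, and HAL1 was -0.21 for ORF2p over ORF1p. Over total RNA, ORF1p then had 3 lower (-0.27, -0.046, -0.50 and -0.47), ORF2p 3 lower (-0.48, -0.38 and -0.78 for the first 3) and mock 4 lower (-0.33, -0.58, -0.58 and -0.49). With series b alone as total RNA, ORF1p had 4 higher (0.18, 0.73, 0.29 and 0.24), ORF2p 4 higher (0.20, 0.62 and 0.24 for the first 3) and mock stood at 0.065, 0.14, 0.15 and 0.16. With series bl alone, ORF1p had 3 lower (-0.23, -0.11, -0.58 and -0.52), ORF2p 2 lower (-0.20, -0.22 and -0.63) and mock 4 lower (-0.34, -0.71, -0.72 and -0.60). Shares over all subfamilies in these settings are not given, so the counts are not read as particular to HAL1.

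Loci with whole counts alone, a smaller set that leaves out the L1TD1 copy, gave 0 subfamilies higher for ORF1p over mock (-0.067, 0.29 and -0.0095 for HAL1, HAL1b and HAL1M8), 0 for ORF2p over mock (HAL1 -0.038, HAL1ME 0.14) and 0 for ORF2p over total RNA (HAL1b -0.036, HAL1M8 0.14, HAL1ME -0.027). ORF2p over ORF1p was 0.36 for HAL1M8 and 0.074 for HAL1ME, and mock over total RNA 0.025 for HAL1. Without each subfamily's leading locus, 0 were higher for ORF2p over mock (HAL1ME 0.35), over ORF1p (HAL1 -0.0066, HAL1ME 0.12) and over total RNA (HAL1ME 0.10). Without the 5 leading loci of any group, a setting chosen after seeing the data, 0 were higher for ORF1p over mock (HAL1b 0.40), ORF2p over mock (HAL1M8 -0.15, HAL1ME 0.16), ORF2p over ORF1p (HAL1 -0.022, HAL1ME -0.037) and ORF2p over total RNA, where 1 was lower (HAL1b -0.0045, HAL1M8 -0.52, HAL1ME -0.12). With loci outside gene spans alone, ORF1p over mock had 0 higher and 2 lower (HAL1 -1.09 and HAL1ME -1.32), with HAL1b at 0.80 not called. ORF2p over mock gave HAL1M8 1.25, which was called, and HAL1ME 0.35, which was not. ORF2p over ORF1p had 2 higher (HAL1 1.29 and HAL1ME 1.66), with HAL1M8 at 0.66 not called. Over total RNA, ORF1p had 2 lower (HAL1 -1.52, HAL1ME -1.65) and ORF2p 0 higher (HAL1b -0.29, HAL1M8 0.52, HAL1ME 0.012).

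Requiring a fitted change of at least 2-fold beside the call left 0 subfamilies higher for ORF1p over mock, ORF2p over ORF1p and ORF2p over total RNA. For ORF2p over ORF1p, HAL1ME missed this cutoff narrowly, at 0.99. A minimum count of 100 gave -0.00066 for HAL1b, ORF2p over total RNA. With only the 2 groups compared, ORF2p over mock called 3 higher (HAL1 0.16, HAL1b 0.50). The labels do not say whether the replicate numbers pair the libraries. Over 21 pairs with the same number, the deviations correlated from -0.52 to 0.52, and 12 exceeded 0.1. Libraries with different numbers were not compared, so this cannot settle whether they pair. With the replicate block, HAL1 was 0.0092 for ORF1p and 0.013 for ORF2p over total RNA, HAL1b remained called for ORF1p over mock (0.59, adjusted p 0.0239, edgeR), and no other call changed among the subfamilies. For HAL1 loci, a minimum count of 20, which tests more loci, called 510 higher and 597 lower for ORF1p over mock, 273 and 242 for ORF2p over mock, and 666 and 623 for ORF2p over ORF1p. A minimum of 100 called 101 and 118, 84 and 37, and 140 and 81. Fits of 2 groups alone, with fewer samples, called 136 and 75, then 61 lower for ORF2p over mock, and 108 and 81 for ORF2p over ORF1p. The shares over all loci in these settings are not given, so the counts are not read as particular to HAL1 copies.

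Leaving out 1 library at a time, subfamilies higher for ORF1p over mock numbered 0 to 1 and HAL1b ran from 0.45 to 0.74. ORF2p over ORF1p ran from -0.033 to 0.065 for HAL1, -0.23 to 0.058 for HAL1b and -0.13 to 0.035 for HAL1M8. Over total RNA, calls appeared when replicate 1 or 2 of total RNA (series b) was left out. For ORF1p 0 to 2 were lower (HAL1b -0.039 to 0.25, HAL1M8 -0.42 to -0.25, HAL1ME -0.36 to -0.21), for ORF2p 0 to 1 (HAL1b -0.087 to 0.086, HAL1M8 -0.49 to -0.33) and for mock 0 to 4 (-0.28 to -0.19, -0.59 to -0.42, -0.59 to -0.41 and -0.49 to -0.32). Among named copies, with library totals the HELLS copy was -0.014 for ORF2p over mock and the SLFN5 copy at 35269917 was -0.013 for ORF2p over ORF1p, the latter from -0.27 to 0.64 (and at -0.05) with 1 library left out. The LOC124900602 copy ran from -0.69 (without ORF1p replicate 3) to 1.63 for ORF1p over mock. Depth limits the locus results, since few HAL1 copies reached the count minimum. On simulated counts of a fixed dispersion, 2-fold changes were recovered less often at loci than in subfamily sums.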
